A study of Mus musculus with 8 samples.

Results

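Haematopoietic stem cells move between the bone marrow and the blood by means of surface receptors, and RNA of 10 genes of this machinery was followed here in stem cells that had lost histone demethylases. The genes were the chemokine receptors Cxcr2 and Cxcr4, the sphingosine 1-phosphate receptors S1pr1 and S1pr4, the surface peptidase Dpp4, and the adhesion and guidance genes Podxl, Robo4, Itga4, Cd44 and Vcam1. They are 10 of the 24222 gene symbols in the count tables. They were chosen in part on the comparison described below, since Cxcr2 and Podxl were higher and Dpp4 and S1pr4 lower in the knockout. Their differences between the groups, and which of them passed the test across all genes, are therefore given as a description and support nothing further.

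The mice were 4 animals with a triple knockout of the histone demethylase genes Kdm4a, Kdm4b and Kdm4c (KO) and 4 wild-type controls (WT), all of strain C57BL6. Stem cells were isolated from their marrow by fluorescence-activated sorting 2 weeks after induction, and each mouse gave 1 RNA-seq library. The sources used here do not give the driver and agent of the induction, the exons removed, the sort markers or the age of the mice. Total counts were 5541504 to 14872493 in KO libraries and 3594315 to 6044289 in WT libraries. Levels are given as CPM, the counts scaled to a common library size with TMM factors. For the targeted genes the KO and WT libraries did not overlap. Kdm4a was at 17.7 to 26.0 CPM in KO and 29.5 to 50.1 CPM in WT. Kdm4b was at 1.11 to 5.15 CPM in KO and 6.71 to 12.1 CPM in WT, and Kdm4c at 26.0 to 48.98 CPM in KO and 98.8 to 148 CPM in WT. In the edgeR test across all genes only Kdm4c passed, with adjusted p = 2.06e-05, against 0.132 for Kdm4a and 0.142 for Kdm4b. All 15 listed stem cell markers, among them Mecom, Procr, Kit and Fgd5, passed the filter on low counts, and their summed level was 4359 to 4786 CPM in KO libraries and 5278 to 5584 CPM in WT libraries.

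In the marrow, stromal cells secrete CXCL12, which holds stem cells in the niche through CXCR4. DPP4 removes the first residues of CXCL12 and so inactivates it. Sphingosine 1-phosphate is rich in blood and draws cells out of tissue through S1PR1, while S1PR4 is a related receptor of lymphoid and myeloid cells. CXCR2 binds the CXCL1 and CXCL2 group of chemokines and drives the release of neutrophils. The integrin chain ITGA4, paired with ITGB1 or ITGB7, grips VCAM1 on stromal and endothelial cells, and CD44 binds hyaluronan. Podocalyxin, the product of Podxl, is a sialomucin of the CD34 family, and ROBO4 is a guidance receptor that has been linked to the lodging of stem cells in the marrow.

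The promoters of 7 of the 10 genes were matched by symbol in RefSeq (GRCm38.p6), each as a window of 250 bases before to 50 bases after the start. Those of the 3 genes that differed between the groups and had a match are printed with that of Cxcr4, whose RNA did not pass the test, to set their CpG content and motifs side by side. Sequences run 5′ to 3′ on the strand of the gene. Capitals mark 3 motifs searched on both strands: AGGAAG, the core of an ETS factor site, AGATAA, the letters bound by factors of the GATA family, and TGTGGT, the core of a RUNX factor site. A hit on the other strand appears as its reverse complement. No hits overlap in the printed windows.
Cxcr2 promoter, chr1:74153744-74154043, plus strand: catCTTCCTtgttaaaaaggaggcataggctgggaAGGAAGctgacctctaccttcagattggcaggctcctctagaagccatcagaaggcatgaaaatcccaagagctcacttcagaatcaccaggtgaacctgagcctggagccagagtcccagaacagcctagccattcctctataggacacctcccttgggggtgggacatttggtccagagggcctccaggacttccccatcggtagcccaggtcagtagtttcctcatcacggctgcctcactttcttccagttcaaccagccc
Dpp4 promoter, chr2:62412182-62412481, minus strand: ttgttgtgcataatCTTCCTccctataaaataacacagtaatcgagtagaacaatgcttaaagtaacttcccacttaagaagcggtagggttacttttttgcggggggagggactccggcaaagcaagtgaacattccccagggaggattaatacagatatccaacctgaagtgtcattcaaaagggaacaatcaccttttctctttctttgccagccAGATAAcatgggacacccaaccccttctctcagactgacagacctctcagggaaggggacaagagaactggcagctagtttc
S1pr4 promoter, chr10:81500088-81500387, minus strand: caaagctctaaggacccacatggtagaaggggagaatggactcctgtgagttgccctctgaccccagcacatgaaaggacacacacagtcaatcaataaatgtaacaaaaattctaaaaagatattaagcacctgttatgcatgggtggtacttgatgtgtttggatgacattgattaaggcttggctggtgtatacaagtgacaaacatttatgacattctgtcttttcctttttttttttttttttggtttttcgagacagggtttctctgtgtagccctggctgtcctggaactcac
Cxcr4 promoter, chr1:128592250-128592549, minus strand: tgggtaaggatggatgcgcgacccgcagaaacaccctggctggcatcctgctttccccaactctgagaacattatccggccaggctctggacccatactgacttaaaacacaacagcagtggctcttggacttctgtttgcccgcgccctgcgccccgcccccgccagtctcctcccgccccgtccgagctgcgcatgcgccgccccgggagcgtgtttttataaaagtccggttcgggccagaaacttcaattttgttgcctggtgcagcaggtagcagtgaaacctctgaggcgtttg
The windows of Cxcr2, Dpp4 and S1pr4 held 2, 4 and 1 CpG dinucleotides, against 20 in that of Cxcr4. Of the 32851 promoter windows in the table, 14.1% had fewer CpGs than Cxcr2, 31.4% fewer than Dpp4, 5.43% fewer than S1pr4 and 73.5% fewer than Cxcr4, and the median was 7. The other matched windows held 2 CpGs (Robo4), 6 (Cd44) and 10 (Itga4). AGGAAG occurred 2 times in the window of Cxcr2 and 1 time in that of Dpp4, and was present in 35.4% of all windows. The Dpp4 window also held 1 AGATAA, which is in 11.2% of all windows. TGTGGT was in none of the printed windows and in 16.8% of all windows, and the windows of S1pr4 and Cxcr4 held none of the 3 motifs. Among the matched windows not printed, that of Cd44 held 3 AGGAAG and 1 AGATAA, that of Robo4 1 AGGAAG, and that of Itga4 1 TGTGGT. The RNA of Cd44, Robo4 and Itga4 did not pass the test either. A match describes the letters in a window and no binding.

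The quasi-likelihood test of edgeR was run on KO against WT over the 11498 genes that passed the filter on low counts, and a gene is said to be called where its adjusted p was under 0.05. All 10 genes passed the filter, and 4 of them were called, against 0.583% of all genes tested. The fit called 2 of them higher (Cxcr2 and Podxl), against 0.252% of all genes tested, and 2 lower (Dpp4 and S1pr4), against 0.33% of all genes tested. These are the genes that the choice rested on, so nothing is read from the shares. Of the called genes Podxl, with a log2 fold change of 0.87, lay nearest to the threshold, and of the genes not called Vcam1, with -1.54. At an unadjusted p under 0.05 the fit had 11.2% of all genes tested, in either direction, and the counts at that level given for the gene lists are to be read against it. Genes called in a list are to be read against the shares called over all genes tested, 0.252% higher and 0.33% lower. In 5 of the 10 genes the KO and WT libraries did not overlap, as was so for 5.81% of all genes tested. These were the 4 called genes and Vcam1. The log2 fold change was below 0 for 7 of the 10, with a median of -0.24, while it was below 0 for 49.8% of all genes tested, with a median of 0.00.

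**Figure D1:**
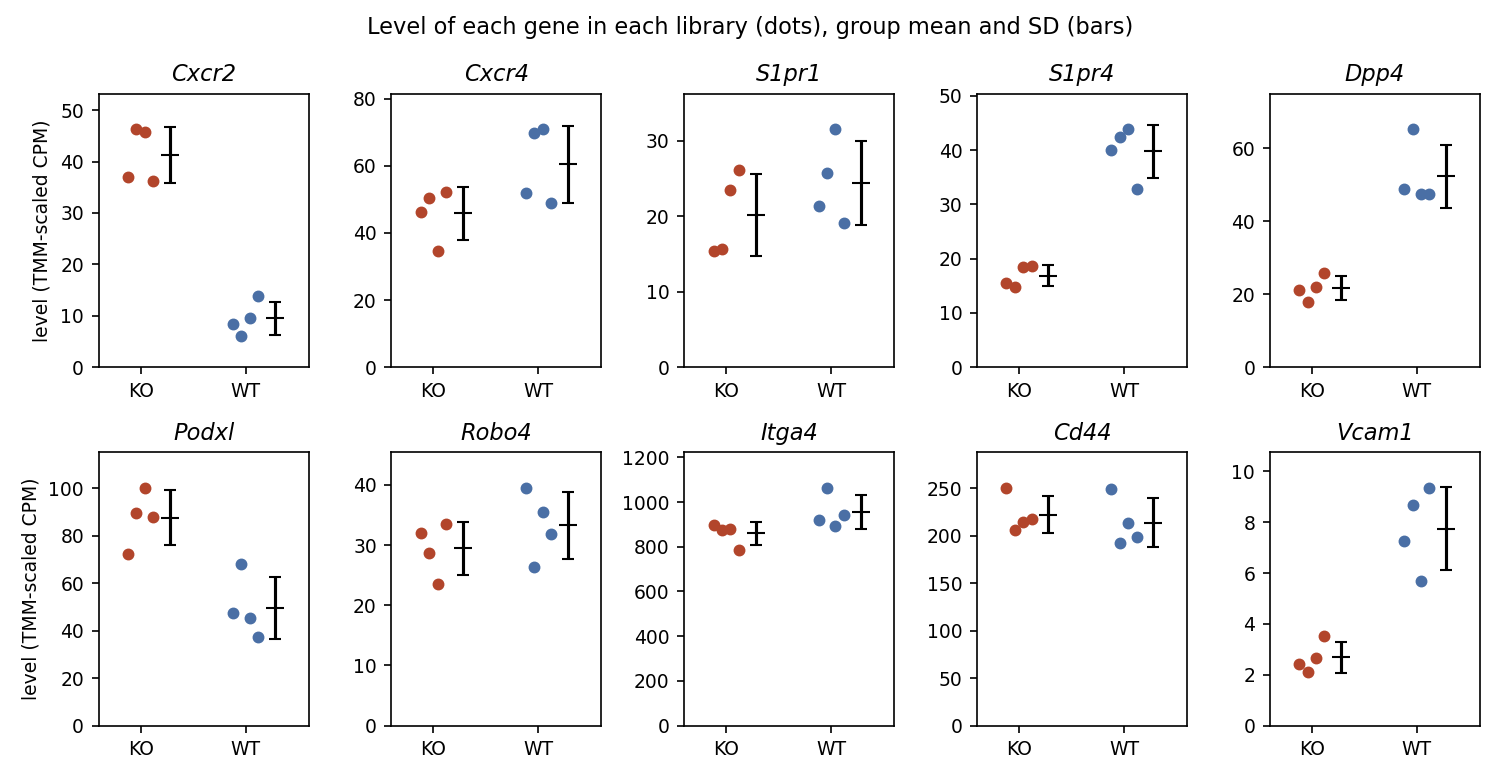
Level of each of the 10 genes in TMM-scaled CPM (vertical axes, each from 0) in the 4 KO (red) and 4 WT (blue) libraries, 1 dot a library, with the group mean and SD in black. Cxcr2 and Podxl lie higher and S1pr4, Dpp4 and Vcam1 lower in every KO library than in any WT library, and the other 5 genes overlap.

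Cxcr2 showed the largest difference of the 10. Its level was 37.0, 46.3, 45.7 and 36.2 CPM in KO mice 1 to 4, and 8.32, 6.15, 9.60 and 13.9 CPM in WT mice 1 to 4. The lowest KO library was thus well above the highest WT library. The means were 41.3 ± 5.44 CPM in KO and 9.49 ± 3.25 CPM in WT (SD, n = 4 each), a 4.24-fold difference (log2 fold change 2.08, SE 0.279). The KO values rest on 195 to 684 counts a library and the WT values on 22 to 86. Within WT the coefficient of variation was 34.3%, where counting alone would give 15.7%. The gene (ENSMUSG00000026180.8) lies on chromosome 1 at 74153989 to 74161246, plus strand, mm10, and no other annotated gene shares its exons. CXCR2 is best known from neutrophils. Of 16 neutrophil markers in the tables, 5 passed the filter and 0 were called, with 0 higher and 0 lower at an unadjusted p under 0.05 and 0 called by DESeq2 or limma voom. Their summed level was 68.2 to 125 CPM in KO and 68.7 to 94.0 CPM in WT. The calprotectin gene S100a8 had 7 to 12 counts in KO and 6 to 11 in WT libraries, Retnlg fewer than 3 in any library, and Fcnb 0 throughout. Among the 5 tested neutrophil markers, 3 had a higher estimate in KO, and the median of the 5 was 0.22 on the log2 scale. Of all genes tested, 49.8% had a log2 fold change below 0, so nothing is read from this share. Whether neutrophils contributed to the Cxcr2 level was not tested.

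Cxcr4, the retention receptor, was at 46.2, 50.4, 34.6 and 52.2 CPM in KO mice 1 to 4 and at 52.0, 69.7, 70.9 and 49.0 CPM in WT mice 1 to 4. KO mice 2 and 4 lay inside the WT range, and WT mice 1 and 4 were the low ones of their group. The means were 45.8 ± 7.92 CPM in KO and 60.4 ± 11.5 CPM in WT (SD, n = 4 each), with a log2 fold change of -0.42 (SE 0.202). Cxcr4 was not called. It lies on chromosome 1 at 128588199 to 128592293, minus strand.

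Of the sphingosine phosphate receptors, S1pr4 was at 15.6, 14.9, 18.4 and 18.6 CPM in KO mice 1 to 4, and at 40.0, 42.5, 43.9 and 32.9 CPM in WT mice 1 to 4. The highest KO library was well under the lowest WT library. The means were 16.8 ± 1.90 CPM in KO and 39.8 ± 4.88 CPM in WT (SD, n = 4 each), so the level was 2.32-fold lower in KO (log2 fold change -1.21, SE 0.233). It was not called without WT mouse 3, where the log2 fold change was -1.16. S1pr1, the egress receptor, was at 15.4, 15.7, 23.5 and 26.2 CPM in KO mice 1 to 4, and at 21.3, 25.7, 31.5 and 19.0 CPM in WT mice 1 to 4. Its groups overlapped widely, with a log2 fold change of -0.24 (SE 0.271), and it was not called. S1pr4 lies on chromosome 10 at 81497747 to 81500132 and S1pr1 on chromosome 3 at 115710433 to 115715072, both on the minus strand.

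Dpp4, the peptidase that trims CXCL12, was at 21.01, 18.0, 22.1 and 25.8 CPM in KO mice 1 to 4, and at 48.9, 65.2, 47.4 and 47.4 CPM in WT mice 1 to 4. Every KO library was lower than every WT library, and WT mouse 2 stood above the rest of its group. The means were 21.7 ± 3.23 CPM in KO and 52.2 ± 8.66 CPM in WT (SD, n = 4 each), 2.38-fold lower in KO (log2 fold change -1.25, SE 0.217). Dpp4 lies on chromosome 2 at 62330073 to 62412231, minus strand, and 3.67% of its exon bases are shared with Gm13561 on the opposite strand. Lymphocytes carry both S1PR4 and DPP4. Of 16 lymphocyte markers in the tables, 4 passed the filter and 0 were called, with 0 at an unadjusted p under 0.05 and 0 by DESeq2 or limma voom. All 4 tested lymphocyte markers were estimated higher in KO, the other way from S1pr4 and Dpp4, and their median was 0.22 on the log2 scale. The lymphocyte list summed to 32.1 to 52.7 CPM in KO and 21.5 to 45.2 CPM in WT. Cd3g and Ncr1 were at 0 in every library, and Cd3e, Cd8b1, Il7r, Cd79a, Ms4a1 and Pax5 had fewer than 3 counts in each. Whether lymphocytes contributed to the levels of S1pr4 and Dpp4 was not tested.

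Podxl, the sialomucin gene, was at 72.2, 89.6, 100.3 and 88.0 CPM in KO mice 1 to 4, and at 47.3, 68.0, 45.2 and 37.3 CPM in WT mice 1 to 4. The groups did not overlap, but KO mouse 1 was close above WT mouse 2. The means were 87.5 ± 11.6 CPM in KO and 49.5 ± 13.1 CPM in WT (SD, n = 4 each), a 1.83-fold difference (log2 fold change 0.87, SE 0.192). Podxl was not called without any 1 of KO mice 2, 3 and 4 and WT mice 1, 3 and 4, where the log2 fold change was 0.75 to 0.88. Podxl lies on chromosome 6 at 31519488 to 31563981, minus strand. Podocalyxin is also known from platelets and endothelium. Of 9 megakaryocyte markers, 8 passed the filter and 2 rose, Gp1ba and Itga2b (all genes 0.252%), with no gene called lower. Of these 8 markers 6 had a fold above 1, and 3 were higher and 1 lower at an unadjusted p under 0.05 (all genes 11.2%). The megakaryocyte list summed to 315 to 332 CPM in KO and 194 to 248 CPM in WT. The part of these markers in the value of Podxl was not tested. Of 11 endothelial markers, 4 passed the filter and 0 were called, with 0 at an unadjusted p under 0.05 and 0 by DESeq2 or limma voom. All 4 tested endothelial markers were estimated lower in KO, the other way from Podxl, and their median was -0.42 on the log2 scale. The endothelial list summed to 54.5 to 83.0 CPM in KO and 82.8 to 102 CPM in WT. Whether endothelial cells contributed to the Podxl level was not tested. The cadherin gene Cdh5 had 0, 0, 0 and 5 counts in KO and 0, 0, 0 and 1 in WT mice, and Cldn5 fewer than 3 in any library.

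**Figure D2:**
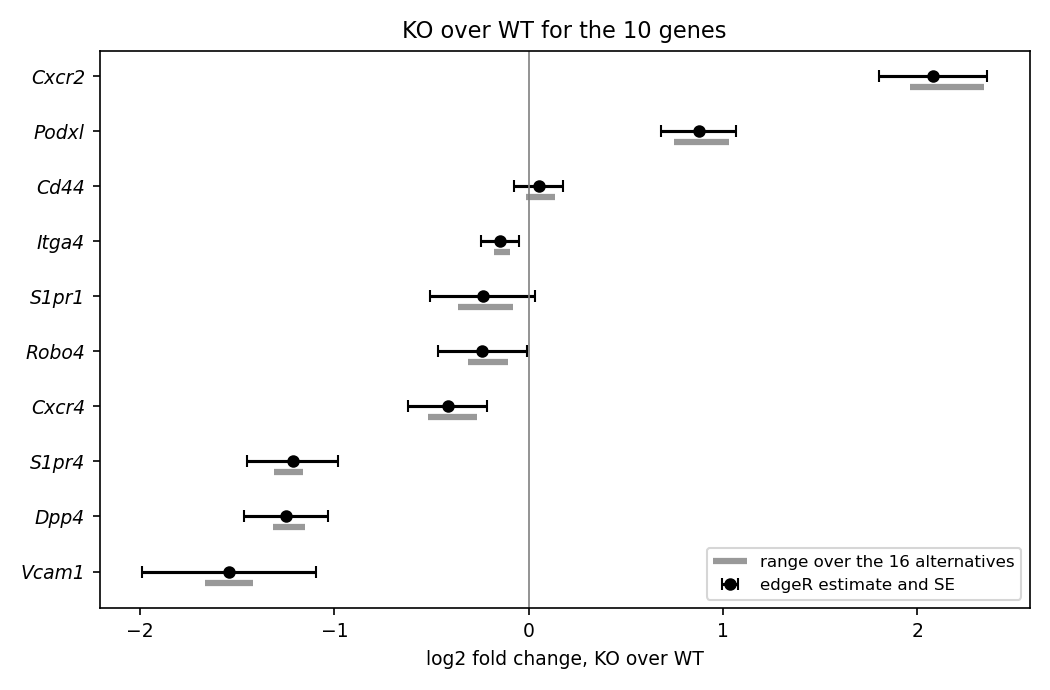
Log2 fold change of KO over WT (horizontal axis) for the 10 genes, with black dots and bars for the edgeR estimate and its SE and grey lines for the range over the 16 alternative settings. Cxcr2 and Podxl lie above 0 and S1pr4, Dpp4 and Vcam1 below -1 under each of these settings, and for Cd44 the range includes 0.

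Vcam1, which binds the ITGA4 integrins, was at 2.43, 2.12, 2.67 and 3.53 CPM in KO mice 1 to 4, and at 7.28, 8.67, 5.68 and 9.36 CPM in WT mice 1 to 4. The groups did not overlap, but the level was low, with 15 to 40 counts in KO and 29 to 58 counts in WT libraries. The log2 fold change was -1.54 (SE 0.448), which was farther from 0 than that of S1pr4 or Dpp4, yet Vcam1 was not called in the fit or in any of its 16 alternatives. VCAM1 is abundant on marrow macrophages and stroma. Of 13 macrophage markers, 6 passed the filter, of which Cd68 rose (19.9 ± 4.19 CPM in KO and 6.58 ± 3.31 CPM in WT) and Mrc1 fell (0.989 ± 0.602 CPM in KO and 6.09 ± 3.96 CPM in WT; SD, n = 4 each, edgeR adjusted p = 0.0348 and 0.0198). Of these 6 markers 1 had a fold above 1, the median log2 fold change was -0.90, and at an unadjusted p under 0.05 there were 1 higher and 3 lower (all genes 11.2%). DESeq2 called 1 in each direction in this list and limma voom 0. Cd68 was not called when any 1 library other than KO mouse 1 was left out, with edgeR adjusted p up to 0.146. Mrc1 was low in KO, and whether its call holds with a library left out was not tested. The macrophage list summed to 41.2 to 67.6 CPM in KO and 31.6 to 64.5 CPM in WT, C1qa had at most 1 count in any library, and the part of such cells in the value of Vcam1 was not tested. In bulk libraries fewer cells of a type and less RNA per cell cannot be told apart. Of 9 stromal markers, 2 passed the filter and 0 were called, with 0 at an unadjusted p under 0.05 and 0 by DESeq2 or limma voom. The 2 tested stromal markers were estimated lower in KO, and their median was -0.45 on the log2 scale. The stromal list summed to 16.3 to 24.7 CPM in KO and 14.4 to 29.5 CPM in WT. Whether stromal cells contributed to the Vcam1 level was not tested. Vcam1 lies on chromosome 3 at 116109949 to 116129688, minus strand.

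Robo4, Itga4 and Cd44 overlapped between the groups and were not called. Robo4 was at 32.0, 28.7, 23.6 and 33.4 CPM in KO mice 1 to 4 and at 39.5, 26.3, 35.5 and 31.8 CPM in WT mice 1 to 4, with a log2 fold change of -0.24 (SE 0.228). Itga4 was at 898, 874, 879 and 787 CPM in KO mice 1 to 4 and at 919, 1064, 892 and 940.3 CPM in WT mice 1 to 4, with a log2 fold change of -0.15 (SE 0.0961). Cd44 was at 251, 206, 215 and 217 CPM in KO mice 1 to 4 and at 249.6, 192, 213 and 199 CPM in WT mice 1 to 4, with a log2 fold change of 0.05 (SE 0.126). For Itga4, KO mice 2, 3 and 4 lay below every WT library, and KO mouse 1 was above WT mouse 3 only. For Cd44, mouse 1 was the highest of its group in both. The counts sum over all isoforms, so a switch between the variant exons of Cd44 would not be seen. Robo4 lies on chromosome 9 at 37401897 to 37415115 and Itga4 on chromosome 2 at 79255426 to 79333123, both on the plus strand, and Cd44 on chromosome 2 at 102811141 to 102901665, minus strand. Of the exon bases of Itga4, 8.04% are shared with Cerkl on the opposite strand.

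**Figure D3:**
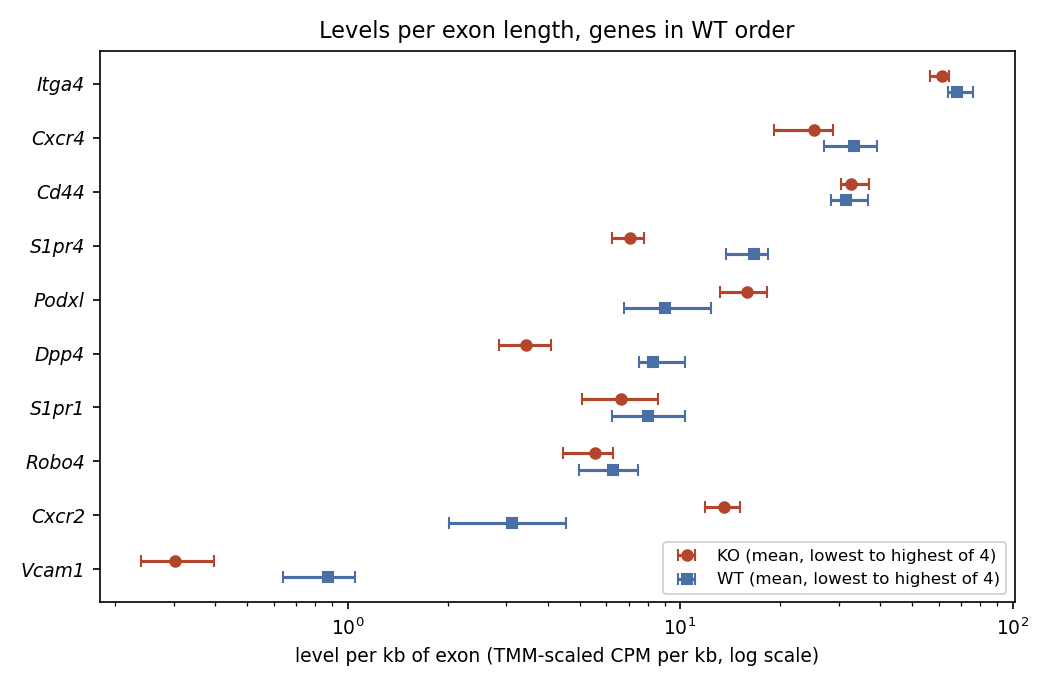
Level per kb of exon in TMM-scaled CPM (horizontal log axis) of the 10 genes in the order of WT, with KO as red circles and WT as blue squares, and lines from the lowest to the highest of 4 libraries. In KO Cxcr2 sits above S1pr4, S1pr1, Robo4 and Dpp4, while in WT it lies below all 4.

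Levels of different genes were compared per kb of exon. In KO the order was Itga4 (61.5 ± 3.56 CPM per kb, mean and SD of 4 libraries), Cd44 (32.8 ± 2.88), Cxcr4 (25.3 ± 4.38), Podxl (15.9 ± 2.11), Cxcr2 (13.6 ± 1.78), S1pr4 (7.06 ± 0.798), S1pr1 (6.63 ± 1.79), Robo4 (5.55 ± 0.823), Dpp4 (3.44 ± 0.512) and Vcam1 (0.303 ± 0.068). The KO ranges overlapped between Podxl and Cxcr2, between S1pr4 and S1pr1 and between S1pr1 and Robo4. In WT the order was Itga4 (68.2 ± 5.44 CPM per kb), Cxcr4 (33.4 ± 6.35), Cd44 (31.5 ± 3.77), S1pr4 (16.7 ± 2.05), Podxl (9.01 ± 2.38), Dpp4 (8.26 ± 1.37), S1pr1 (8.01 ± 1.81), Robo4 (6.27 ± 1.06), Cxcr2 (3.11 ± 1.07) and Vcam1 (0.873 ± 0.183). The WT ranges of Cxcr4 and Cd44 overlapped, as did those of each neighbouring pair from Podxl to Robo4, so these neighbours were not set apart by more than their spread. Cxcr2 thus stood in place 5 of 10 in KO and in place 9 in WT, and S1pr4 in place 6 in KO and in place 4 in WT. Of the 10 genes Itga4 had the smallest coefficient of variation, at 5.79% in KO and 7.97% in WT.

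Of 8 ligands of CXCR2 and CXCR4, 2 passed the filter and 0 were called, with 0 at an unadjusted p under 0.05 and 0 by DESeq2 or limma voom. Cxcl12 had 0, 1, 13 and 6 counts in KO mice 1 to 4 and 0, 1, 0 and 3 in WT mice 1 to 4. Cxcl1 had at most 1 count and Cxcl2 at most 9 counts in any library. Ppbp, a platelet chemokine that binds CXCR2, was at 17.7 ± 5.30 CPM in KO and 13.0 ± 2.31 CPM in WT (SD, n = 4 each), with a log2 fold change of 0.50 (SE 0.316). Of 23 other chemokine receptors, 3 passed the filter and 0 were called, with 0 at an unadjusted p under 0.05 and 0 by DESeq2 or limma voom. Cxcr3, Ccr7 and Ccr8 were at 0 in every library. Ackr3, a scavenger of CXCL12, had at most 5 counts in any library. Ccrl2, an atypical receptor, was at 14.1 ± 2.09 CPM in KO and 11.02 ± 7.17 CPM in WT, with a log2 fold change of 0.28 (SE 0.356).

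Of 19 other genes of the sphingosine phosphate pathway, 15 passed the filter and 0 were called, while at an unadjusted p under 0.05 there were 2 higher and 1 lower (all genes 11.2%), and 0 were called by DESeq2 or limma voom. Mfsd2b, an exporter of sphingosine 1-phosphate in platelets and red cells, was at 73.1 ± 12.4 CPM in KO and 46.8 ± 21.5 CPM in WT (SD, n = 4 each, edgeR adjusted p = 0.256). Spns2, the endothelial exporter, was at 223 ± 23.0 CPM in KO and 212 ± 39.1 CPM in WT. The kinase gene Sphk1 had 4, 0, 0 and 6 counts in KO mice 1 to 4 and 0 in every WT library. Cd69, whose product removes S1PR1 from the surface, was at 8.68 ± 3.10 CPM in KO and 10.8 ± 3.98 CPM in WT, and Klf2, a factor that drives S1pr1 in T cells, was at 21.6 ± 5.64 CPM in KO and 24.8 ± 12.6 CPM in WT. Both had log2 fold changes within 2 SE of 0, at -0.46 (SE 0.375) and -0.16 (SE 0.314).

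Among 40 integrin and integrin activator genes other than Itga4, 27 passed the filter, 1 rose and 0 fell (all genes 0.252% and 0.33%). At an unadjusted p under 0.05 there were 3 higher and 2 lower (all genes 11.2%). The riser was Itga2b, the CD41 chain of the platelet integrin, at 105 ± 15.2 CPM in KO and 52.98 ± 12.6 CPM in WT (SD, n = 4 each, log2 fold change 0.98, SE 0.183, edgeR adjusted p = 0.00737). DESeq2 and limma voom called it too. Itgb1 and Itgb7, the partners of ITGA4, were at 411 ± 36.7 CPM and 4.97 ± 1.90 CPM in KO, and at 392 ± 16.3 CPM and 5.67 ± 2.33 CPM in WT, with log2 fold changes of 0.07 (SE 0.108) and -0.10 (SE 0.445).

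Of 30 selectin, sialomucin and other adhesion genes in the tables, 25 passed the filter and 0 were called by edgeR or limma voom, while DESeq2 called 1 higher, the P-selectin gene Selp. At an unadjusted p under 0.05, 1 was higher and 3 lower. Cd34, which is related to Podxl, was at 80.95 ± 5.35 CPM in KO and 87.9 ± 9.54 CPM in WT, with a log2 fold change of -0.14 (SE 0.157). Podxl2, the other member of that family, was at 0 in every library. Slc9a3r1 and Ezr, which tie podocalyxin to actin, had log2 fold changes of -0.14 (SE 0.234) and -0.06 (SE 0.151).

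In the Slit and Robo list 8 of 14 genes passed the filter and 0 were called, with 1 lower and 0 higher at an unadjusted p under 0.05 and 0 by DESeq2 or limma voom. Slit2, a ligand of the Robo family, was at 1.68 ± 1.13 CPM in KO and 4.12 ± 2.66 CPM in WT (SD, n = 4 each), with a log2 fold change of -1.31 (SE 0.624, edgeR adjusted p = 0.434). Unc5b, a partner of ROBO4, had at most 7 counts in any library. Downstream, 27 of 29 genes for G proteins, RGS proteins, receptor kinases and arrestins passed the filter and 0 were called, with 0 higher and 1 lower at an unadjusted p under 0.05 and 0 by DESeq2 or limma voom. The 1 lower was Arrb1, an arrestin, at 167 ± 34.9 CPM in KO and 225 ± 21.5 CPM in WT (log2 fold change -0.41, SE 0.145, edgeR adjusted p = 0.253). Over the 9 lists together, 145 of 210 genes passed the filter, 1 rose and 1 fell, and the median log2 fold change was -0.01. Of all genes tested, 0.252% rose and 0.33% fell.

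In the list of prolyl peptidases and marrow proteases, 12 of 20 genes passed the filter, 0 rose and 1 fell (all genes 0.252% and 0.33%). The gene that fell was Fap, a peptidase of the DPP4 family whose gene is a neighbour of Dpp4. Fap was at 0.286, 1.56, 0.869 and 0.928 CPM in KO mice 1 to 4 and at 6.41, 2.80, 4.90 and 7.26 CPM in WT mice 1 to 4. The groups did not overlap, and WT mouse 2 was the lowest of its group. The difference was 6.16-fold (log2 fold change -2.62, SE 0.576, edgeR adjusted p = 0.0234), but it rested on 2 to 13 counts in KO and 10 to 45 counts in WT libraries. Fap passed the filter on low counts only through WT, the group where it is high. Its call is therefore given as a description. Fap was called in 6 of 15 alternatives, with adjusted p from 0.012 to 0.173 over them. It was not called by limma voom or with thinned counts, nor without any 1 of KO mice 1, 3 and 4 and WT mice 1, 3 and 4. Fap lies on chromosome 2 at 62500943 to 62574075, minus strand, and its start is 162 kb upstream of that of Dpp4. Among the 72 genes whose start lies within 250 kb of one of the 10, 54 passed the filter. Fap was the only one of them called in either direction by edgeR, which called 0.583% of all genes tested. At an unadjusted p under 0.05 there were 5 higher and 2 lower of the 54, where all genes gave 11.2%, DESeq2 also called 1 gene, and limma voom called 0. The other tested gene near Dpp4, the RNA sensor gene Ifih1, had a log2 fold change of 0.32. Cxcr1, the neighbour of Cxcr2, had 2 to 24 counts in KO and 0 to 18 counts in WT libraries. No gene near Podxl or S1pr4 was called, among 1 and 24 tested.

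**Figure D4:**
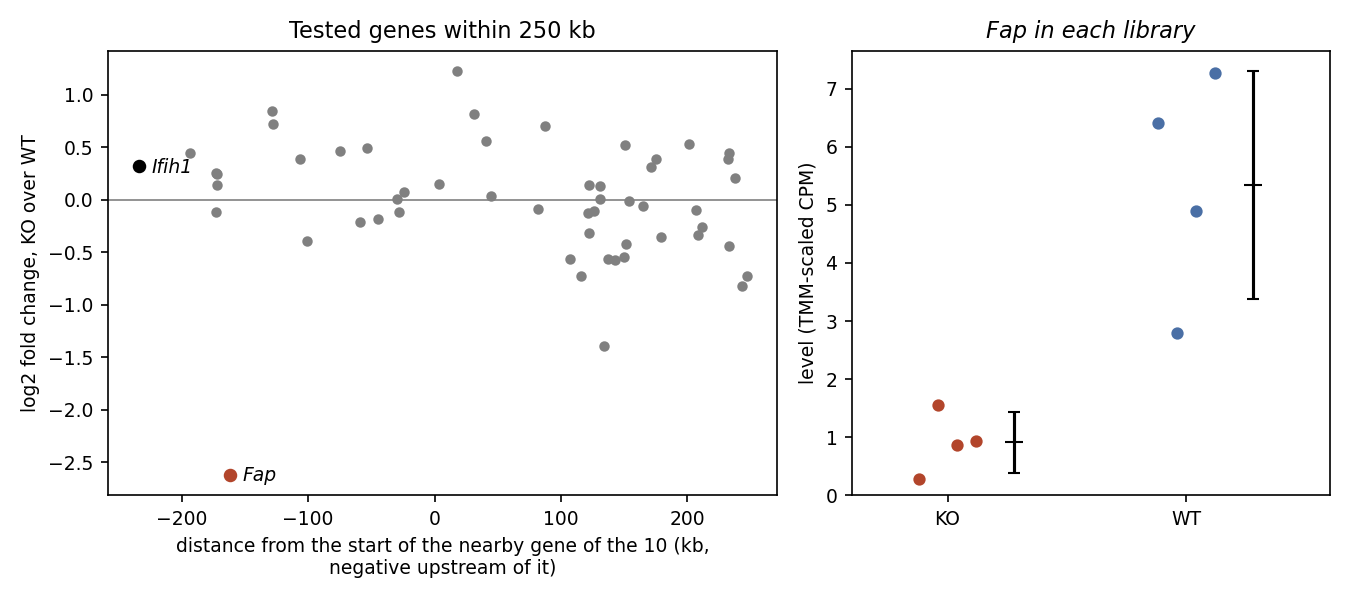
Left, log2 fold change of KO over WT (vertical axis) of the 54 tested genes within 250 kb against the distance of their start from that of the nearest of the 10 genes (horizontal axis, kb, negative upstream), and right, the level of Fap in TMM-scaled CPM in each KO and WT library with the mean and SD. Fap lies apart at -2.62, and its KO libraries are all below its WT libraries.

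The genes whose levels followed those of the 4 called members most closely over the 8 libraries were found by the root mean square difference of centred log2 CPM. For Cxcr2 these were Irf7, an interferon regulatory factor gene, and Cd68, a lysosomal glycoprotein gene, with differences of 0.413 and 0.42 log2 units. Irf7 was at 16.9 ± 3.54 CPM in KO and 5.80 ± 1.75 CPM in WT (SD, n = 4 each, edgeR adjusted p = 0.0674) and was not called. It passed in 3 of 16 alternatives, without KO mouse 3 (edgeR adjusted p = 0.0491), without a filter (0.0213) and with DESeq2 (0.00287). In the other 13, limma voom and the replicate block among them, Irf7 was not called. The adjusted p ranged from 0.00287 to 0.199 over the alternatives. For Podxl they were Trim65 and Aar2, at 0.134 and 0.196, and for Dpp4 the zinc finger gene Zfp518a and Ss18l1, at 0.234 and 0.242. For S1pr4 they were the tetraspanin gene Cd63 and Atf7ip, a partner of the H3K9 methyltransferase SETDB1, at 0.148 and 0.231. Zfp518a fell to 98.1 ± 11.9 CPM in KO, against 211 ± 30.4 CPM in WT (edgeR adjusted p = 8.03e-05). Cd63 fell to 24.9 ± 3.01 CPM in KO, against 64.9 ± 12.2 CPM in WT (edgeR adjusted p = 0.00051). Since the measure takes in the difference between the groups, genes with a like fold change are near by construction.

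**Figure D5:**
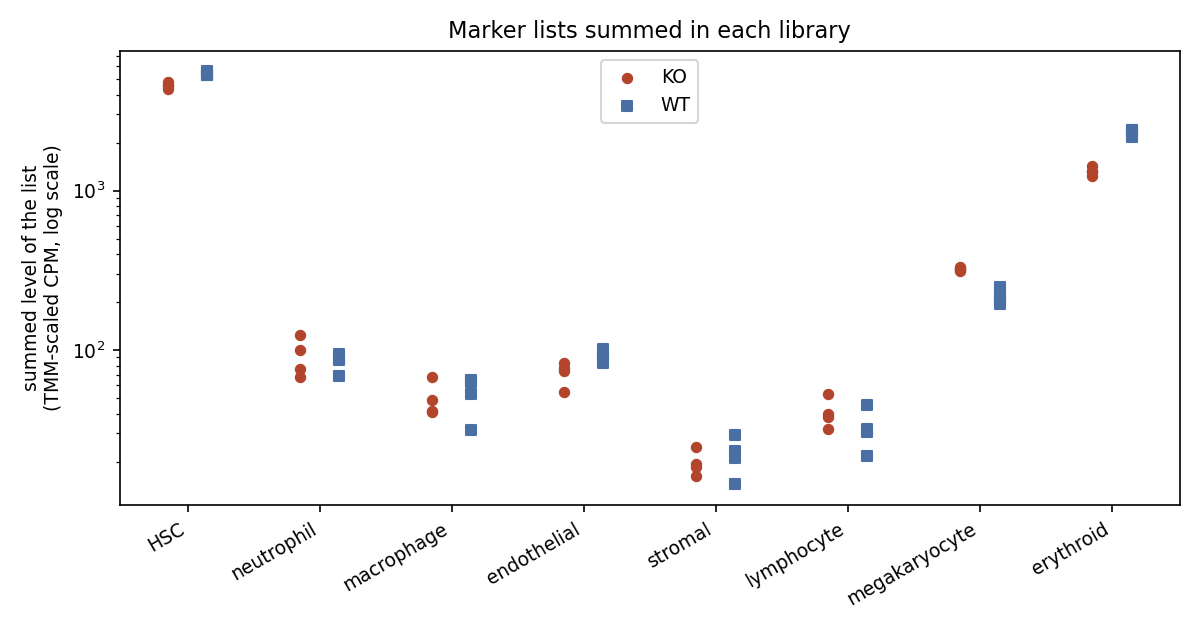
Summed level of each marker list in TMM-scaled CPM (vertical log axis) in each KO (red circles) and WT (blue squares) library. The megakaryocyte list is higher in KO and the stem cell and erythroid lists are lower, with no overlap between KO and WT, and the other lists overlap.

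Summed markers of the erythroid lineage were 1230.1 to 1431 CPM in KO and 2173 to 2409.5 CPM in WT, most of it from Car2, and 1 of the 4 genes tested fell. Of the 15 stem cell markers 0 were called by edgeR or limma voom. At an unadjusted p under 0.05, 1 was higher (Ly6a) and 5 were lower, among them Mecom, Hlf, Kit and Mllt3, where all genes gave 11.2%, while DESeq2 called 1 in each direction. The median log2 fold change of the stem cell markers was -0.26. The part of these shifts in the values of the 10 genes was not tested.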

How the data were processed

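RNA-seq of sorted haematopoietic stem cells was deposited as 1 table per library of raw counts of reads per gene symbol. Per the labels' protocols, the authors amplified cDNA with the Nugen Ovation system, used RNA STAR (Galaxy 2.4.0d-2) for mapping and htseq-count (Galaxy 0.6.1galaxy1) for counting. Per the submitters' processing notes, the genome was mm10. The strand setting and the annotation were not stated, so reads of overlapping antisense genes may not be separated. The labels name no molecular identifiers, so floors cover counting error only.

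Counts were analysed with edgeR 4.0.16 in R 4.3.3: filterByExpr by group (minimum count 10, minimum total 15), TMM, robust quasi-likelihood fit on genotype, and Benjamini-Hochberg adjustment over 11498 genes, threshold 0.05, two-sided. Folds come from the fit, and the standard error (SE) is the log2 fold change divided by the root of F. CPM are counts scaled by TMM-adjusted library size. DESeq2 1.42.0, limma voom 3.58.1 (with sample weights), other scalings and filters, thinned counts, a replicate block and omission of each library were alternatives. The procedure was tested on simulated data. Positions and exon lengths are from GENCODE M21 (GRCm38), which matched 23053 of 24222 symbols directly and 794 through a synonym.

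The 10 genes, the lists and the rule for named genes were chosen with earlier results of these data known. The rule took the 10 genes, their direct partners, the called genes of 9 lists (or the smallest p), called genes within 250 kb, and the 2 genes nearest in pattern to each called member. Some genes and 1 list that the rule covers are not reported here. Each mouse is a separate animal by the labels. No pair of libraries of a group agreed within sampling noise (smallest chi-square per degree of freedom 10.9). This measure does not tell separate animals from repeat preparations of 1 animal.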

Additional observations from a re-analysis of the deposited data

Results flagged for a closer look

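In 72 groups of 4 libraries that were checked for a value standing apart, 3 were found, and chance alone gives about 1 in 20 groups. The library total of KO mouse 3 was 14872493, against 5541504 to 7059382 in the other KO mice. Dpp4 was at 65.2 CPM in WT mouse 2, against 47.4 to 48.9 CPM in the other WT mice, so the odd library lies farther from KO than the rest. Ppbp was at 9.86 CPM in KO mouse 1, against 19.4 to 20.9 CPM in the other KO mice.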

How the results depend on the processing

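Over 16 alternatives, Cxcr2 and Dpp4 were called in all 16 and S1pr4 in all but that without WT mouse 3. Podxl was called in 9 of 16, being lost with the replicate block and without KO mouse 2, 3 or 4 or WT mouse 1, 3 or 4. So the members called higher were 1 with the replicate block and 1 to 2 with a library left out, and those called lower 1 to 2. Same-numbered mice did not deviate together (correlations -0.0917 to -0.0089), but whether they share more than a number was not tested. Over all genes, edgeR called 29 higher and 38 lower. This became 108 and 90 without a filter, and 78 and 76 with DESeq2. Voom called 25 lower. Leaving out a library gave 14 to 33 higher and 21 to 38 lower, the fewest without WT mouse 3. Of the other trafficking genes, 3 were higher without a filter (Itga2b, Itgb3 and Selp), 2 with DESeq2, and 1 to 2 with a library left out. Lower were 2 without a filter, Fap among them, and 0 to 2 with a library left out. With the stricter filter of 5 CPM in 4 libraries Fap was not tested, which left 0 lower, as did voom, the replicate block and thinned counts, where the cause was not tested. These 4 settings also left 0 near genes lower, the range with a library left out being 0 to 1, and 1 near gene, Mcm6, was higher without a filter. Itga2b was called in all 16 alternatives. Values near 0 changed sign for Cd44 (0.05 in the fit of all libraries, -0.014 without KO mouse 1), Klf2 (0.076 with voom, -0.45 to 0.20 with a library left out), Itgb7 (0.12 with thinned counts, -0.54 to 0.18) and Spns2 (-0.039 to 0.16). By the longest transcript, 6 of 10 genes kept their place in the WT order. Fap had 2 counts in its lowest library, and 3 counts correspond to 0.201 to 0.557 CPM in KO and 0.484 to 0.839 CPM in WT libraries.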

Other observations

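Among genes too low to be tested, the chemokine receptor gene Cxcr6 had 10, 65, 57 and 5 counts in KO mice 1 to 4 and 0, 2, 5 and 6 counts in WT mice 1 to 4. On the CPM scale these were 1.43, 9.20, 3.81 and 0.928 in KO and 0, 0.559, 0.979 and 0.968 in WT. KO mice 1, 2 and 3 were thus above every WT library, while KO mouse 4 lay inside the WT range. Cxcr6 was picked after its values were seen.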
